A study of Mus musculus with 39 samples.

Results

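The last 2 days of a definitive endoderm differentiation with Activin A plus Wnt3a are described here: 3 microRNA (miRNA) arrays of day 5 were set against 3 arrays of day 3, which are 6 of the 39 arrays of the series and were chosen by their treatment and day alone. The cells were TCL-1, a mouse embryonic stem cell (ESC) line from 129/SvJae mice. Both groups received Activin A at 100 ng/ml together with Wnt3a at 50 ng/ml on collagen, after most feeder fibroblasts had been left behind on gelatin. The medium was RPMI with B27 and a supplement that the study's methods call sodium butyrate and its over-expression protocol spells sodium byruate. Changes over the same days with the same dose of Activin A alone and without a growth factor (control, the same medium) serve as comparison, with 3 arrays per day each. All values come from 1 ESC line, and nothing in the sources used here says that the arrays of a group came from separate cultures, so the p-values measure the spread between these arrays, which may be technical. RNA came from whole cultures, in which fewer cells of a type and less RNA per cell cannot be told apart.

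Each array carried probes for 611 mouse miRNAs. On day 3, 280 to 312 of them were detected, and on day 5, 301 to 309. A level is the total signal of a miRNA over its probes after quantile normalization, on a log2 scale, with values under 2 set to 2 (a log2 level of 1.00, also given to an undetected miRNA). All arrays of day 3 lay on 1 slide and all arrays of day 5 on another, both read in the same scan session, so that day and slide cannot be told apart from these 6 arrays alone. In the table of normalized values deposited for the series, the columns of these 6 arrays follow the scanner signals of Activin A arrays of the same day and replicate number. Which of the 2 sources carries the right labels cannot be settled from the files. The scanner signals were used under their sample labels throughout, and the comparison with the labels exchanged is given with the limits. Each comparison with Activin A alone rests on these labels.

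A miRNA is a short RNA that binds messenger RNAs mainly through its seed, bases 2 to 8, and lowers their output. Each miRNA precursor is a hairpin whose arms can both give a mature strand, usually one abundant and one scarce, and the scarce one is marked with an asterisk in the names used on this array. ESCs are known for 2 clusters, miR-290 to miR-295 and miR-302 with miR-367, most of whose abundant strands carry the same or a closely related seed and support self-renewal. Activin A acts through Nodal-type receptors and SMAD proteins and drives ESCs through a primitive-streak-like state to definitive endoderm, the source of gut, liver and pancreas, while Wnt3a signals through beta-catenin and helps to set posterior identity in the embryo.

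The mature sequences of the miRNAs on which the results turn were taken from RefSeq (GRCm38.p6), 5′ to 3′, with the seed in capitals. Names without an arm were matched to the arm that carries the abundant strand in current naming, and names with an asterisk to the opposite arm. The miRNAs that rose include 2 pairs with 1 seed per pair, all encoded within Hox gene clusters: miR-10a (chr11:96317186-96317208, plus strand, inside Hoxb3 of the annotation) and miR-10b (chr2:74726074-74726096, plus strand, inside Hoxd3 and Hoxd4) share one, and miR-196a (chr11:96265187-96265208, between Hoxb13 and Hoxb9, and chr15:102973365-102973386, between Hoxc10 and Hoxc9, both plus strand) and miR-196b (chr6:52230129-52230150, minus strand, between Hoxa9 and Hoxa10) share the other.
miR-10a: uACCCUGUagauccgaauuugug
miR-10b: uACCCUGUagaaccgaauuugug
miR-196a: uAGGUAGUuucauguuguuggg
miR-196b: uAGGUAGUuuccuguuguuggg
Both strands of the miR-199a hairpin rose. They are made from 2 loci with identical mature sequences, chr1:162217844-162217866 for the 5p strand and chr1:162217883-162217904 for the 3p strand (plus strand, inside Dnm3), and chr9:21496537-21496559 and chr9:21496498-21496519 (minus strand, inside Dnm2). RefSeq lists miR-199b-3p with the same sequence as miR-199a-3p, so their signals cannot be separated.
miR-199a-5p: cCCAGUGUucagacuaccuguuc
miR-199a-3p: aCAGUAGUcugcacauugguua
The neighbours miR-322 (chrX:53054306-53054327) and miR-503 (chrX:53054027-53054049), both on the minus strand between Hprt and Plac1, have related seeds. miR-335-5p lies inside Mest at chr6:30741314-30741336 on the plus strand.
miR-322: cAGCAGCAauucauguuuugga
miR-503: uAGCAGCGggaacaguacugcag
miR-335-5p: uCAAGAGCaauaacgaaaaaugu
Among the miRNAs that fell are the scarce strands of the miR-302 hairpins inside Larp7. miR-302b* (chr3:127545238-127545260, plus strand) and miR-302c* (chr3:127545368-127545389, plus strand) share a seed that differs from the seed of the abundant strand miR-302b (chr3:127545275-127545297), and the abundant strand miR-294 of the other cluster (chr7:3220691-3220712, plus strand) has the same seed as miR-302b.
miR-302b*: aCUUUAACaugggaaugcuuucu
miR-302c*: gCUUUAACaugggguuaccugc
miR-302b: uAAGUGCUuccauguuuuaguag
miR-294: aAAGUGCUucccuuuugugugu

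Most miRNAs kept their level between day 3 and day 5 within a factor of 2. Of the 311 miRNAs tested, those detected on at least 2 of 3 arrays of a day, 24 (7.72%) were called, with an adjusted p under 0.05 and a difference over 2-fold. Of these, 18 (5.79%) rose and 6 (1.93%) fell. At an adjusted p under 0.05 without a limit on size, 115 (37.0%) passed the test, 51 (16.4%) upwards with a median log2 difference of 0.58 and 64 (20.6%) downwards with a median of -0.44. The median over all miRNAs tested was -0.09, and 229 of the 311 moved by less than 0.5 on the log2 scale. For each of the 24 called miRNAs the values of the days did not overlap. They were called from these same values, so this is not a separate result. Of these 24, 15 were detected on all 6 arrays, 5 were undetected on every array of day 3, and the other 4 were detected on some arrays of 1 day.

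**Figure D1:**
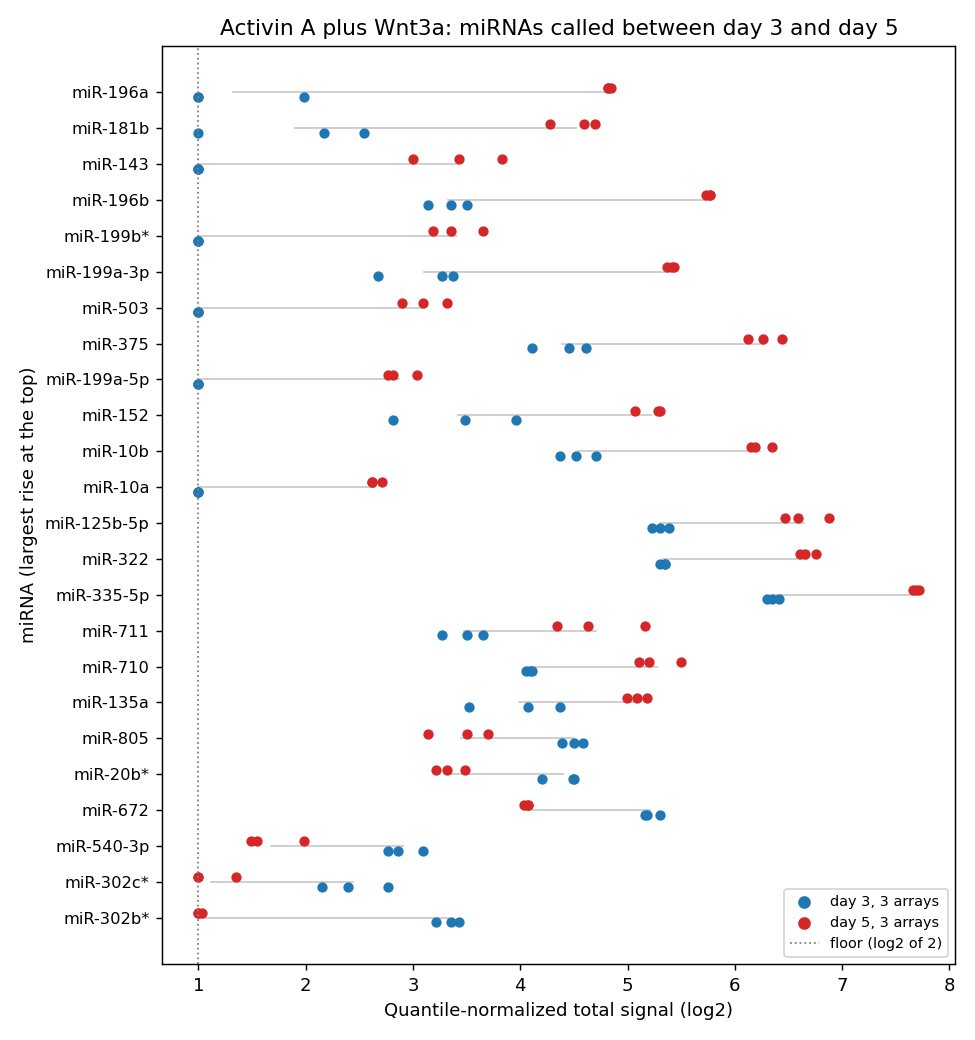
Level (log2 of the quantile-normalized total signal) of the 24 called miRNAs on each array of day 3 (blue) and day 5 (red), ordered by the difference; the dotted line is the floor at 1.00, where undetected values lie. The 18 miRNAs that rose are above the 6 that fell. In none do the 2 days overlap, which the choice by these same values makes likely in advance.

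**Figure D2:**
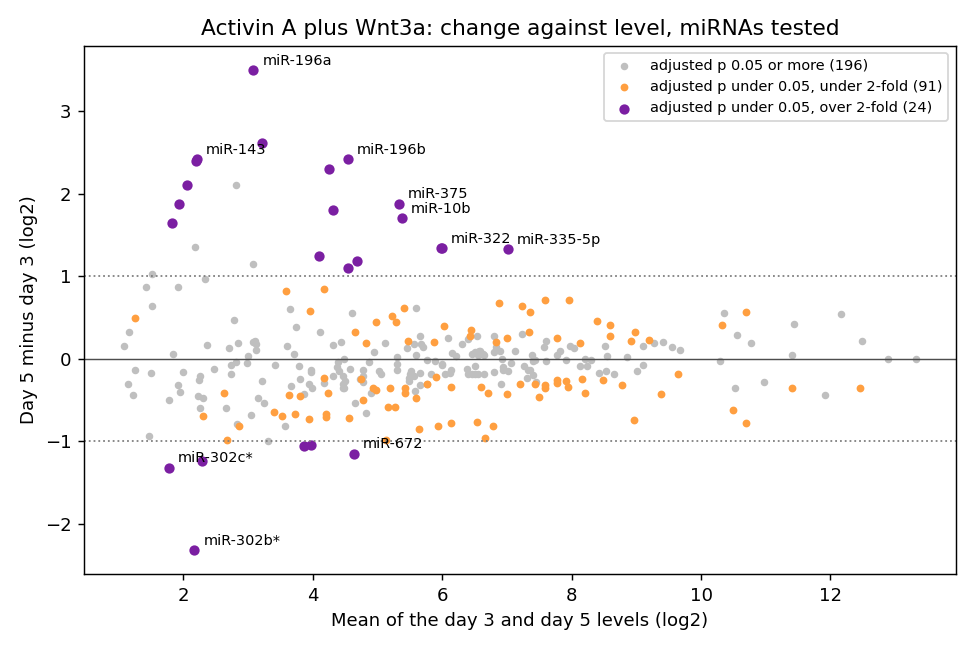
Day 5 minus day 3 (log2) against the mean level of both days for the 311 miRNAs tested, with dotted lines at 2-fold. The called miRNAs are mostly of low to middle level, from the largest rise of 3.50 for miR-196a to the largest fall of -2.32 for miR-302b*. Both sizes depend on the floor, because most values of the lower day lie there.

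Of the 8 miRNAs listed for the Hox clusters 4 were tested, and these 4 passed upwards and over 2-fold, where 16.4% of all miRNAs tested rose and 5.79% rose over 2-fold. miR-10 and miR-196 lie among the Hox genes, which give cells their position along the body axis, and are known to be expressed with them. The level of miR-196b was 3.35, 3.14 and 3.50 on day 3 and 5.77, 5.77 and 5.73 on day 5, a rise of 5.37-fold (2.42 ± 0.10, log2 difference ± SE, adjusted p = 9.62e-05). The 3 arrays of day 5 were nearly equal and well above every array of day 3. miR-196a, detected on 2 of 3 arrays of day 3 at 1.00, 1.98 and 1.00, stood at 4.85, 4.82 and 4.82 on day 5. Its log2 difference was 3.50 ± 0.29 (adjusted p = 0.00092), the largest of all, with 2 of 3 day 3 values at the floor. miR-10b rose from 4.71, 4.37 and 4.52 to 6.15, 6.19 and 6.35, by 3.24-fold (1.70 ± 0.11, adjusted p = 0.000424). miR-10a was undetected on the 3 arrays of day 3 and reached 2.62, 2.62 and 2.71 on day 5. That is at least 1.88-fold above the lowest signals detected on day 3 (adjusted p = 3.6e-05). Here and beside each lower bound below, the adjusted p is that of the difference from the floor, where undetected values have no spread, and not of the bound. miR-10a was tested only because of its detection on day 5 and so had to differ, which leaves 3 miRNAs tested through both days. The other 4 miRNAs on the list of 8 (miR-10a*, miR-10b*, miR-196a* and miR-615-3p) were undetected on all 6 arrays. The signals of the list summed to 33.4 to 36.4 on day 3 and to 160 to 170 on day 5.

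Neither of the miR-196 strands was detected on any control array of day 3 or day 5. With Activin A alone, miR-196b rose by 1.71 on the log2 scale (adjusted p = 0.00202) to 3.99, 3.94 and 4.13, below the levels with Wnt3a added, and miR-196a was undetected on day 3 and stood at 2.33, 2.08 and 2.75 on day 5. The change of miR-196a was larger with Wnt3a than with Activin A alone by 2.12 ± 0.30 (adjusted p = 0.000322), a size that depends on the floor because most day 3 values lie there, and that of miR-196b by 0.71 ± 0.52, which did not pass the test (adjusted p = 0.391). miR-10a went the opposite way with Activin A alone, from 3.30, 3.14 and 3.06 to 2.36, 2.15 and 2.67, while its change in Activin A plus Wnt3a starts from the floor, so no size is given for the difference. It was detected on every control array of both days at 3.92 to 4.73, above its level in Activin A plus Wnt3a. miR-10b rose in all 3 treatments, by 1.13 in the control and 1.15 with Activin A. The day 5 levels in Activin A plus Wnt3a were the highest of the 3 treatments for miR-10b and both miR-196 miRNAs but not for miR-10a.

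Of 12 miRNAs listed for fibroblasts and other mesenchymal cells, 8 were tested, 5 rose (4 over 2-fold) and none fell, beside the 16.4% and 5.79% of all miRNAs tested. Of those 4, miR-143, miR-199a-5p and miR-199b* were tested only through day 5 and so had to differ, and nothing is read from the count. miR-143, a miRNA of smooth muscle and fibroblasts, was undetected on day 3 and stood at 3.00, 3.83 and 3.43 on day 5, at least 3.19-fold higher (adjusted p = 0.00112). miR-199a-3p, abundant in fibroblasts, rose from 3.27, 2.67 and 3.37 to 5.43, 5.37 and 5.41, by 4.92-fold (2.30 ± 0.19, adjusted p = 0.000992). The opposite strand of its hairpin, miR-199a-5p, was undetected on day 3 and measured 3.04, 2.81 and 2.77 on day 5 (at least 2.18-fold higher, adjusted p = 9.62e-05). miR-199b* went from undetected to 3.35, 3.19 and 3.65 (at least 3.14-fold higher, adjusted p = 0.000157). miR-21, present in most cell types, rose by 0.41 ± 0.11 (adjusted p = 0.035) from a level near 10.

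The other members gave no such rise. miR-145, made from the same precursor transcript as miR-143, and miR-145* were undetected on all 6 arrays, as was miR-214*, and miR-214, which shares a transcript with miR-199a, was detected on 1 array of day 5. miR-22, miR-140 and miR-140* differed by 0.09, 0.05 and -0.19 and did not pass the test. The signals of the 12 miRNAs summed to 1300 to 1390 on day 3 and 1650 to 2010 on day 5, mostly from miR-21. miR-143, miR-199a-5p and miR-199b* were tested only through day 5 and so had to differ. The cultures began with ESCs grown on feeder fibroblasts, and the part that fibroblasts or other mesenchymal cells had in these rises was not tested. miR-143 rose with Activin A alone too (2.14, adjusted p = 3.86e-07, from undetected to 3.19, 3.43 and 2.81) and was undetected on every control array, whereas miR-199a-5p was undetected on all Activin A arrays and was detected on 1 control array, of day 5. miR-199a-3p was present on every control array, at 4.15 to 4.71.

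miR-375 and miR-218 rose among the miRNAs of gut, liver and pancreas. miR-375, required for normal pancreatic islet mass and found in endoderm-derived epithelia, measured 4.61, 4.11 and 4.45 on day 3 and 6.12, 6.26 and 6.44 on day 5, a rise of 3.69-fold (1.88 ± 0.16, adjusted p = 0.00092). All day 5 arrays lay well above the day 3 arrays. Activin A alone gave a rise of 2.36 from a lower start, and the 2 changes did not differ beyond the spread (-0.47 ± 0.49, adjusted p = 0.55). In the control miR-375 was detected on 1 array of day 3 and none of day 5. miR-218, encoded within Slit genes, rose from 6.63, 6.51 and 6.49 to 7.20, 7.15 and 7.29 (0.67 ± 0.07, adjusted p = 0.00169), and by 1.08 in the control. miR-7a, expressed in endocrine and neural cells, fell by 0.77 ± 0.05 (adjusted p = 0.000466), from 6.97, 6.86 and 6.93 to 6.17, 6.10 and 6.19. The related miR-7b, detected on 2 arrays of day 3 only, did not pass the test. The other 7 of the 11 listed miRNAs, among them miR-122 of hepatocytes and miR-192, miR-194 and miR-215 of gut and liver, were undetected on all 6 arrays.

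miR-322 and miR-503, from an X-linked cluster whose miRNAs target cell-cycle regulators, rose. miR-322 measured 5.35, 5.30 and 5.35 on day 3 and 6.61, 6.65 and 6.76 on day 5 (2.53-fold, 1.34 ± 0.06, adjusted p = 9.62e-05). miR-503 was undetected on day 3 and stood at 3.32, 3.09 and 2.90 on day 5, at least 2.56-fold higher (adjusted p = 0.000187). Of the 11 miRNAs of this cluster on the array, 6 were tested and 4 rose, where 16.4% of all miRNAs tested rose. Only miR-322 and miR-450a-5p were tested through both days, and miR-503, miR-351, miR-542-3p and miR-542-5p, tested only through day 5, could hardly be other than higher there. The others that passed were miR-351 (0.50) and miR-450a-5p (0.44), and the remaining 5 were undetected on all 6 arrays. miR-322 and miR-503 were higher in the control, where miR-503 was detected on every array of both days at 3.74 to 5.25. miR-322 rose in the control by 1.08 and with Activin A alone by 0.69, less than with Wnt3a added (a difference of 0.65 ± 0.07, adjusted p = 3.66e-05). Within its seed family the other members did not rise: miR-195 and miR-497, which share a transcript of their own, fell by 0.58 and 0.50, and miR-15b, miR-16 and miR-15a differed by 0.11, 0.14 and -0.03 without passing the test.

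Both strands of miR-335, encoded in the imprinted gene Mest, rose. miR-335-5p measured 6.35, 6.30 and 6.41 on day 3 and 7.69, 7.72 and 7.66 on day 5 (2.52-fold, 1.33 ± 0.05, adjusted p = 9.18e-05). miR-335-3p went from 6.84, 6.95 and 6.97 to 7.47, 7.66 and 7.56 (0.64 ± 0.07, adjusted p = 0.00236), under 2-fold. With Activin A alone the 2 strands rose by 1.73 and 1.68, more than with Wnt3a added, by 0.40 ± 0.09 (adjusted p = 0.00861) and 1.04 ± 0.12 (adjusted p = 6.35e-05), from lower levels on day 3.

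The miR-99/100 and miR-125 miRNAs, which accompany let-7 in several clusters, had 3 tested members. All 3 rose, where 16.4% of all miRNAs tested rose. miR-125b-5p, a miRNA of differentiating cells and a relative of worm lin-4, rose from 5.39, 5.23 and 5.30 to 6.47, 6.59 and 6.88 (2.53-fold, 1.34 ± 0.12, adjusted p = 0.00121). miR-125a-5p rose by 0.57 ± 0.11 (adjusted p = 0.0132) and miR-99b by 0.33 ± 0.08 (adjusted p = 0.0314). let-7e, which is encoded beside both, rose by 0.62 ± 0.08 (adjusted p = 0.00371) from 5.20, 5.05 and 5.07 to 5.63, 5.71 and 5.82. It was the only one of the 4 tested let-7 miRNAs to rise. let-7a and let-7c, which block self-renewal in later cells, fell by 0.35 ± 0.08 (adjusted p = 0.0271) and 0.73 ± 0.14 (adjusted p = 0.0126), and let-7f differed by 0.00 ± 0.11. The fall of let-7a did not pass with 75th percentile scaling (-0.13, adjusted p = 0.385). The other 5 let-7 miRNAs were undetected on all 6 arrays. In the control miR-125a-5p and miR-99b fell instead (-0.56 and -0.55), and their changes differed from those with Activin A plus Wnt3a by 1.13 (adjusted p = 8.54e-06) and 0.88 (adjusted p = 5.11e-05). The other members rose there: miR-125b-5p by 1.65, a change that did not pass the test against that with Activin A plus Wnt3a (-0.32 ± 0.13, adjusted p = 0.0527), and miR-100 by 2.10 and miR-99a by 3.83, both of which were undetected with Activin A plus Wnt3a.

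Several single miRNAs rose over 2-fold outside these groups. miR-152, a member of the miR-148 family that targets a DNA methyltransferase, was at 3.96, 2.81 and 3.48 on day 3 and 5.30, 5.07 and 5.28 on day 5 (3.48-fold, 1.80 ± 0.30, adjusted p = 0.00845), while miR-148a rose by only 0.25 ± 0.06 (adjusted p = 0.0231) and miR-148b did not pass (0.56 ± 0.21, adjusted p = 0.0957). miR-181b, detected on 2 of 3 arrays of day 3 at 1.00, 2.54 and 2.17, stood at 4.70, 4.59 and 4.28 on day 5 (2.62 ± 0.42, adjusted p = 0.00779). Of the other miR-181 miRNAs, a family best known from lymphocytes and vascular cells, miR-181c rose by 0.58 ± 0.14 (adjusted p = 0.028, and 0.0549 with 75th percentile scaling), miR-181d differed by 0.28 ± 0.11 (adjusted p = 0.114), and miR-181a was detected on 2 arrays of day 5 only (adjusted p = 0.138). miR-710 and miR-711 rose by 1.19 ± 0.11 (adjusted p = 0.00127) and 1.24 ± 0.23 (adjusted p = 0.0126), and by 1.11 to 1.23 in both other treatments. miR-135a rose from 3.52, 4.07 and 4.37 to 4.99, 5.09 and 5.18 (1.10 ± 0.22, adjusted p = 0.0164). It no longer passed the test without replicate 2 of day 3 or without replicate 2 or 3 of day 5. miR-152, miR-181b and miR-135a were also called in both other treatments. They rose by 2.07, 1.25 and 1.73 in the control and by 1.21, 3.09 and 1.51 with Activin A alone.

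Smaller rises passed the test in other families, to be read beside the 16.4% of all miRNAs tested that rose and the 20.6% that fell. miR-26a and miR-26b rose by 0.41 ± 0.04 (adjusted p = 0.00185) and 0.25 ± 0.04 (adjusted p = 0.00798). In the family of miR-130 and miR-301, 3 of 6 tested miRNAs rose, with miR-301a at 0.71 ± 0.08 (adjusted p = 0.00236). The rise of miR-130a (0.57 ± 0.11, adjusted p = 0.0126) was 0.05 when arrays were scaled by their 75th percentile. In the miR-30 family 2 of 8 rose (miR-30b by 0.35 and miR-30e by 0.27), and miR-30a and miR-30c differed by 0.09 and 0.04 without passing. The miR-17 to 92 cluster, which drives proliferation, was split: miR-18a and miR-19a passed upwards (0.32 and 0.46) and miR-17 and miR-92a downwards (-0.25 and -0.62), and the 2 rises did not pass under 75th percentile scaling. miR-29a and miR-29b, repressors of collagens and of DNA methyltransferases, fell by 0.41 ± 0.11 (adjusted p = 0.0418) and 0.38 ± 0.10 (adjusted p = 0.0364), the latter not with 75th percentile scaling (-0.20, adjusted p = 0.099). miR-34a, a target of p53, fell by 0.32 ± 0.05 (adjusted p = 0.00874).

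The largest falls were in the scarce strands of the ESC clusters. miR-302b* measured 3.43, 3.35 and 3.21 on day 3 and was detected on 1 array of day 5 (1.00, 1.00 and 1.03), a log2 difference of -2.32 ± 0.07 (adjusted p = 3.6e-05). miR-302c* measured 2.77, 2.39 and 2.15 on day 3 and was detected on 1 array of day 5 (1.00, 1.35 and 1.00), a log2 difference of -1.32 ± 0.19 (adjusted p = 0.00588). Both were tested only through day 3 and so had to be lower on day 5. Their day 5 values lay at or near the floor, so the sizes, standard errors and adjusted p depend on it. Of the 8 miRNAs of the miR-302 cluster, which includes miR-367, 6 fell and none rose, these strands among them, where 20.6% of all miRNAs tested fell. Of the 6 tested through both days 4 fell, with miR-302b at -0.78 ± 0.10 (adjusted p = 0.00404) and miR-302a at -0.36 ± 0.06 (adjusted p = 0.00717), while miR-302d and miR-367 did not pass (-0.28 and -0.35). Of the 13 miRNAs tested of the miR-290 to miR-295 cluster, 7 fell and none rose, beside the same 20.6%, and miR-295*, miR-292-5p, miR-290-3p, miR-291a-5p and miR-294* fell most, by 0.99 to 0.81.

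The abundant strands of these clusters give the strongest signals on the arrays, and there the normalization decides the value. miR-294 held the first rank and miR-295 the second on all 6 arrays. Quantile normalization gives a rank the same value on every array, 13.32 and 12.89 here, so their difference of 0 is set by construction. Before normalization, the total signal of miR-294 was 11170, 9385 and 11080 on day 3 and 8792, 8335 and 7510 on day 5, and the days did not overlap. That of miR-295 was 7761, 6400 and 7974 on day 3 and 7256, 6197 and 5821 on day 5, where they did. With each array scaled by its 75th percentile instead, miR-294 fell by 0.56 (adjusted p = 0.00305) and miR-295 by 0.40 (adjusted p = 0.00516), and miR-291a-3p, at 0.21 ± 0.11 after quantile normalization (adjusted p = 0.182), stood at -0.42. On that scale 11 of 13 miRNAs of the miR-290 to miR-295 cluster and 7 of 8 of the miR-302 cluster fell, and the median differences were -0.66 and -0.73, against -0.44 and -0.57 after quantile normalization and against -0.05 over all miRNAs tested on the 75th percentile scale.

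The ratio of the scarce to the abundant strand within an array does not depend on the scaling. It was lower on day 5 in 8 of 9 hairpins of the 2 clusters, by little in most. For miR-291a the log2 ratio of the unnormalized signals was -5.08, -5.14 and -5.11 on day 3 and -5.53, -5.55 and -5.29 on day 5, a shift of -0.35. For miR-295 the shift was also -0.35, for miR-292 -0.21, for miR-294 -0.19 and for miR-302a -0.01, and miR-293 shifted the opposite way by 0.53. The days did not overlap for miR-291a, miR-292 and miR-295 nor, in the opposite direction, for miR-293. They overlapped for miR-290, miR-294 and miR-302a. For miR-302b and miR-302c, both counted among the 8, the scarce strand was detected on only 1 array of day 5. These ratios had to be lower there, and nothing is read from them. Hairpins outside the 2 clusters were not compared in this way, so whether such shifts are particular to these clusters was not tested.

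**Figure D3:**
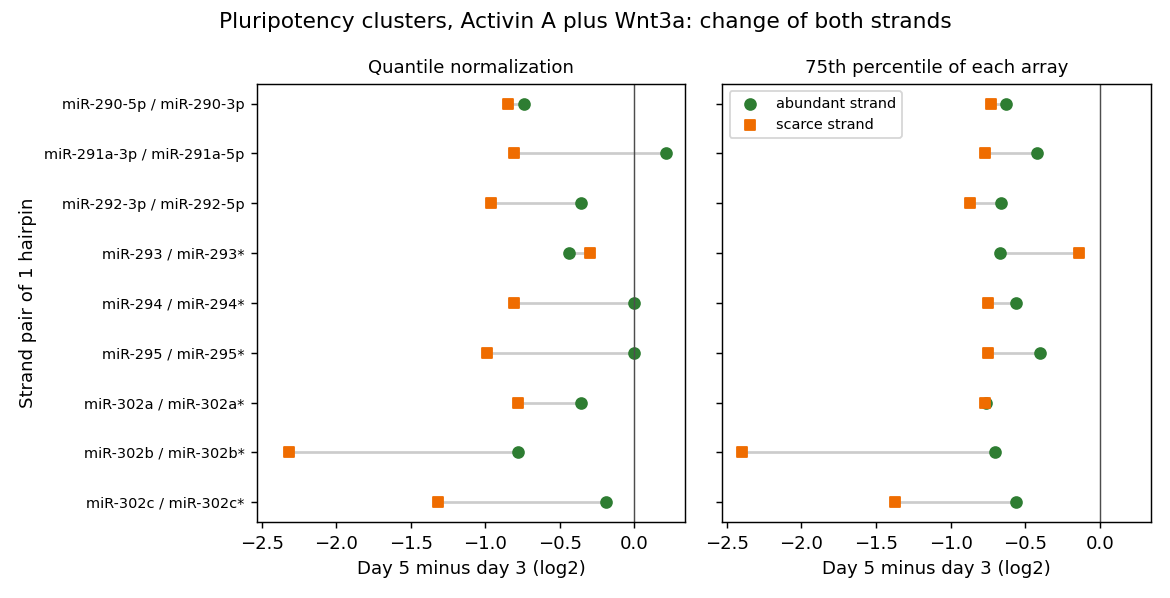
Day 5 minus day 3 (log2) of the abundant strand (green circles) and the scarce strand (orange squares) of 9 hairpins of the miR-290 to miR-295 and miR-302 clusters, after quantile normalization (left) and after scaling by the 75th percentile (right). The abundant strands of miR-294 and miR-295 are at 0 on the left by construction and at -0.56 and -0.40 on the right, so the gap between strands is smaller on the right, except for miR-302b (-1.54 and -1.70) and miR-293 (0.14 and 0.53).

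After quantile normalization, miR-294 dropped by 1.67 and miR-302a by 1.67 in the control over the same days. With Activin A alone they differed by -0.14 and 0.00 without passing the test. For strands this bright these values too depend on the normalization. The change of miR-302a was 1.31 ± 0.09 higher in Activin A plus Wnt3a than in the control (adjusted p = 5.99e-08). With 75th percentile scaling miR-302a changed by -0.76 in Activin A plus Wnt3a, against -0.36 after quantile normalization. No difference is given for miR-294, whose change in Activin A plus Wnt3a is set by its rank. Against Activin A alone, 7 of 8 miRNAs of the miR-302 cluster fell more or rose less with Wnt3a added, such as miR-302b (a difference of -0.60 ± 0.12, adjusted p = 0.00356), and none went the other way, where 12.0% of all miRNAs tested were lower in this comparison.

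The other falls over 2-fold were single miRNAs. miR-672, an X-linked miRNA, measured 5.30, 5.16 and 5.18 on day 3 and 4.03, 4.07 and 4.07 on day 5 (-1.15 ± 0.06, adjusted p = 0.000154). With Activin A alone it fell further, from 4.85, 4.87 and 4.71 to 2.77, 1.69 and 1.90, and the difference of the 2 changes was 1.54 ± 0.27 (adjusted p = 0.00168). miR-20b*, the scarce strand of a miR-17 relative, went from 4.20, 4.50 and 4.49 to 3.48, 3.32 and 3.21 (-1.06 ± 0.12, adjusted p = 0.00231). miR-805 went from 4.50, 4.39 and 4.58 to 3.70, 3.50 and 3.14 (-1.04 ± 0.15, adjusted p = 0.00622). miR-672, miR-20b* and miR-805 stayed past an adjusted p of 0.05 but under 2-fold with 75th percentile scaling (-0.89, -0.78 and -0.75). miR-540-3p, from the imprinted Dlk1-Dio3 region that is active in fully pluripotent mouse cells, measured 2.86, 3.09 and 2.77 on day 3 and 1.98, 1.55 and 1.49 on day 5 (-1.24 ± 0.16, adjusted p = 0.00433).

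In a pair of large clusters no miRNA rose after quantile normalization. Of the 70 Dlk1-Dio3 miRNAs on the array, 52 were tested, 10 fell and none rose, a share close to the 20.6% of all miRNAs that fell, with a median of -0.12 against -0.09 over all miRNAs tested. Apart from miR-540-3p and miR-770-3p (-0.67 ± 0.20, adjusted p = 0.0493), those that fell did so by 0.26 to 0.46. The brightest members, miR-494, miR-127 and miR-410, did not pass the test (0.29, -0.18 and 0.03), and miR-300 fell by 0.26 ± 0.05 (adjusted p = 0.0154). Under 75th percentile scaling 2 members rose and 11 fell. Of the 39 miRNAs of the repeat-rich cluster of miR-297, miR-466, miR-467 and miR-669, which lies in an intron of Sfmbt2, 21 were tested, 13 fell and none rose, to be read against the same 20.6%. The falls ranged from 0.98 for miR-466f-3p to 0.22 for miR-467e. Members of this cluster have near-identical sequences, and their probes may share signal. With 75th percentile scaling 13 fell too.

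The epithelial miRNAs tested moved little in Activin A plus Wnt3a, and the neural miRNAs tested differed by less than 2-fold. In the miR-200 family, which maintains epithelial identity by repressing Zeb genes, 5 of 9 miRNAs were tested, miR-429 rose by 0.19 ± 0.05 (adjusted p = 0.0418) and none fell. miR-200c measured 7.29, 7.32 and 7.32 on day 3 and 7.12, 7.22 and 7.32 on day 5, and miR-200b and miR-200a differed by -0.07 and 0.22 without passing. In the control the family fell. For all 5 tested miRNAs the change was over 2-fold higher with Activin A plus Wnt3a, where 10.3% of all miRNAs tested were called higher. Examples were miR-200c (1.75 ± 0.07, adjusted p = 1.36e-10) and miR-429 (1.99 ± 0.07, adjusted p = 4.66e-11). With 75th percentile scaling these 2 differences were 1.12 and 1.54. Of 10 neural miRNAs 4 were tested. miR-124, the main neuronal miRNA, fell by 0.65 ± 0.12 (adjusted p = 0.0125), and miR-9, miR-128 and miR-212 differed by -0.21, -0.21 and 0.62 without passing. The signals of the neural list summed to 96.4 to 125 on day 3 and 80.8 to 178 on day 5. In the control miR-9 rose by 2.62 and miR-124 by 1.76, and their changes were lower with Activin A plus Wnt3a by 2.83 ± 0.10 (adjusted p = 2.61e-11) and 2.41 ± 0.17 (adjusted p = 4.93e-08).

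The 6 heart and muscle miRNAs, among them miR-1, miR-133a and miR-206, were undetected on all 6 arrays. Of 11 blood and endothelial miRNAs 4 were tested, none passed, and the list summed to 56.9 to 63.3 on day 3 and 42.9 to 60.4 on day 5. miR-126-3p of endothelium differed by -0.24 ± 0.09 (adjusted p = 0.0952) and miR-223 of myeloid cells by -0.16 ± 0.28 (adjusted p = 0.674). The cluster of miR-183, miR-96 and miR-182, known from sensory epithelia, the miR-23, miR-27 and miR-24 miRNAs and the miR-106 clusters had 1, 1 and 2 miRNAs past the test out of 4, 6 and 7 tested, all under 2-fold. Of all miRNAs tested, 37.0% passed.

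Among the miRNAs that the study names as measured, and so in part chose on these samples, miR-222, a regulator of the cell cycle inhibitor p27, fell from 4.31, 4.63 and 4.67 to 3.86, 3.88 and 3.88 (-0.67 ± 0.11, adjusted p = 0.00779, but adjusted p = 0.0682 with 75th percentile scaling), and its partner miR-221 fell by 0.34 ± 0.06 (adjusted p = 0.0131). miR-338-5p differed by -0.68 ± 0.36 (adjusted p = 0.187), and miR-24-2*, detected on 2 arrays of day 3, by 0.13 ± 0.76 (adjusted p = 0.906). miR-340-3p was detected on 1 array of day 3 and on all arrays of day 5 (1.36 ± 0.43, adjusted p = 0.06). The others it names (miR-335, miR-218, miR-375, miR-10a, miR-196a and miR-196b, miR-181c, let-7e and miR-125a-5p) are described above.

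Whether the change from day 3 to day 5 differed from that without growth factors was tested in 1 fit of 18 arrays. Of 339 miRNAs tested, 68 (20.1%) differed over 2-fold, 35 (10.3%) with a higher change in Activin A plus Wnt3a and 33 (9.73%) with a lower one. Of these 68, 57 were not among the 24 called above, and 23 moved by less than 0.5 in Activin A plus Wnt3a. The changes within the control and within Activin A alone also came from this fit, while the 24 calls came from a fit of 6 arrays. The counts of calls, their overlaps and the shares that passed were therefore not obtained at like power. The control itself had 80 calls of 322 (24.8%). Of the 24 calls in Activin A plus Wnt3a, 12 (50.0%) were also calls in the control, all in the same direction, which are 15.0% of the control's calls. Against Activin A alone, 13 of 332 miRNAs (3.92%) differed over 2-fold, 8 (2.41%) with a higher and 5 (1.51%) with a lower change. Activin A alone had 32 calls of 330 (9.70%), and 15 of the 24 (62.5%) were among them in the same direction, 46.9% of its calls. At an adjusted p under 0.05 alone, 29.2% of miRNAs had a higher and 28.3% a lower change than the control, and 8.73% a higher change than Activin A. In the control 70.8% of miRNAs passed at that level (36.0% upwards) and 14.3% rose over 2-fold, and with Activin A 45.5% passed (20.3% upwards) and 2.73% fell over 2-fold. Of the 24, 9 were called in all 3 treatments and 6 in Activin A plus Wnt3a only; 11 of the 24 passed the test of the difference from the control and 6 that from Activin A alone.

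Among miRNAs detected on every array of the 4 groups, the changes that differed most from Activin A alone were those of miR-672 (1.54) and miR-376b* (1.12 ± 0.22, adjusted p = 0.00356) on the higher side, and miR-770-3p (-1.21 ± 0.23, adjusted p = 0.0026) and miR-335-3p (-1.04) on the lower. miR-376b*, of the Dlk1-Dio3 region, stayed at 3.30, 2.75 and 3.00 on day 3 and 3.14, 2.90 and 2.84 on day 5 with Wnt3a and fell by 1.17 with Activin A alone. The arrays of the control and of Activin A changed scan session between day 3 and day 5 and those of Activin A plus Wnt3a did not, so in these 2 tests the treatment and the session cannot be told apart. Scaling by the 75th percentile moved the median difference from the control from -0.08 to -0.34 and from Activin A from 0.02 to -0.24, and the split of calls to 16 higher of 61 and 4 higher of 25, so that the directions of these differences are relative to the scale. With it miR-200c (1.12), miR-429 (1.54), miR-9 (-2.75) and miR-124 (-2.39) still differed from the control, and miR-672 (0.93), miR-335-3p (-1.19) and miR-770-3p (-1.70) from Activin A alone, whereas miR-376b* no longer passed (0.23, adjusted p = 0.492).

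**Figure D4:**
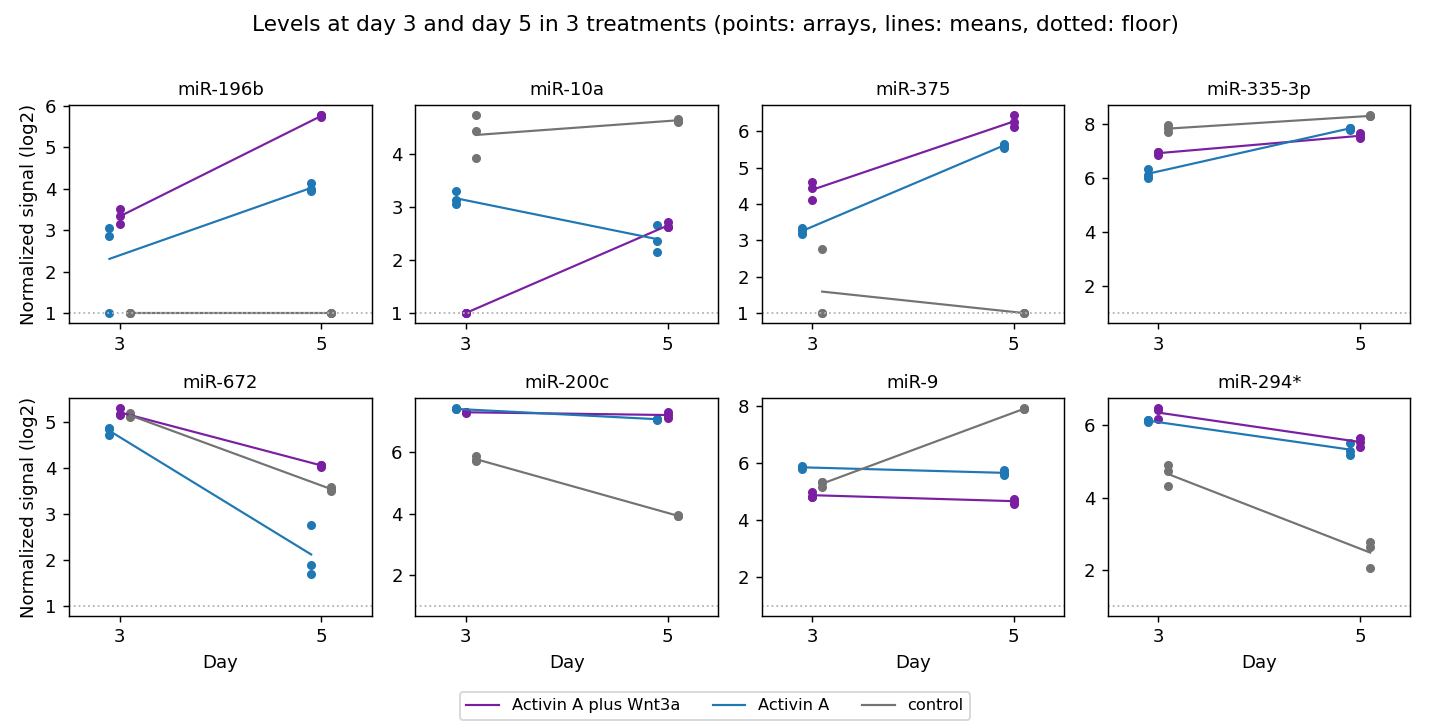
Level (log2) of 8 miRNAs on each array of day 3 and day 5 in Activin A plus Wnt3a (purple), Activin A (blue) and control (grey); lines join the means and the dotted line is the floor. miR-196b and miR-375 rise in both Activin A treatments and are at the floor in the control except on 1 array of day 3 for miR-375, miR-10a rises with Wnt3a added and falls with Activin A alone, and miR-200c and miR-9 move by less than 0.5 in both and in opposite directions by more in the control.

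Because each day had its own slide, the 3 Activin A arrays of day 5, of which 1 lay on the slide of the day 5 arrays and 2 on that of the day 3 arrays, give a measure of the difference between these slides. On all 3 of these arrays 22 of the 24 called miRNAs were detected. In 15 of the 22 the difference between slides had the direction of the change between days. Counted as negative where it went against the change, its median was 4.97% of the change, and in none was it over 0.5 of it. Opposite signs cancel in that median, so it does not give the size of the difference. With 1 array on 1 side, slide and array cannot be told apart. The highest difference was that of miR-199b* (0.98 beside a change of 2.40). These 2 slides are linked only by the Activin A arrays of day 5, so a fit with slide as a term takes this same difference off the change. Such a fit is no separate check, and that the 22 miRNAs kept their direction was set by the values above. With slide as a term in a fit of all 39 arrays, all 24 kept their direction, 7 miRNAs were called in all, and 5 of the 24 were among them. With the same term in a fit of scan session 2 alone, without replicate 1 of Wnt3a day 5, which stands apart, 22 were called. Of the 24, 20 were among them, and this alternative was chosen after seeing the data. In that fit miR-672 (-0.82, adjusted p = 0.226), miR-540-3p (-0.97, adjusted p = 0.345) and miR-711 (1.07, adjusted p = 0.0874) no longer passed the test.

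**Figure D5:**
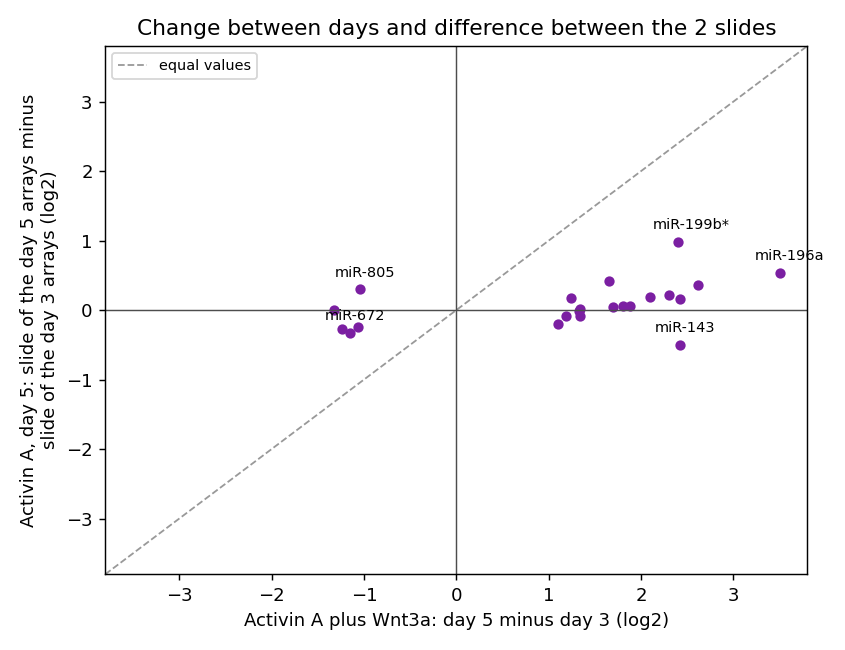
For the 22 called miRNAs detected on all Activin A arrays of day 5, the difference between the 2 slides within that group (vertical, log2, 1 array minus the mean of 2) against the change from day 3 to day 5 in Activin A plus Wnt3a (horizontal, log2); the dashed line marks equal values. All points lie nearer to the horizontal axis than to the dashed line, miR-199b* at 0.98 the farthest up.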

How the data were processed

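Total RNA was labelled with Cy3 and hybridized to Agilent 1-colour mouse miRNA arrays. The deposited scanner files (Feature Extraction 10.7.3.1 per the file headers, 9.5.3.1 in the submitters' processing notes) hold an intensity per miRNA, the background-corrected total gene signal summed over its probes by the authors' software, and a detection flag. The authors' table of quantile-normalized log2 values was used only to compare its columns with the scanner files: 18 of 39 columns, including these 6, follow another array. Total signals of the 611 mouse miRNAs were quantile-normalized over the 39 arrays, floored at 2 and log2-transformed. limma 3.58.1 (R 4.3.3; statmod 1.5.0) was fitted to miRNAs detected on at least 2 of 3 arrays of a day, with Benjamini-Hochberg adjustment over all tested; called means an adjusted p under 0.05 and over 2-fold. For a miRNA undetected on all arrays of a day, the lower bound compares the mean of the other day with the lowest detected signal of each array. The adjusted p given beside a bound belongs to the difference from the floor. Sequences, loci and neighbouring genes came from RefSeq tables. The fits were tested on simulated data. Named were the 10 largest rises and falls detected on all 6 arrays, the largest lower bounds, the brightest and the called miRNAs of each list, the largest treatment differences and the miRNAs the study names as measured. The lists and miRNAs were chosen with earlier results of these data known. Alternatives varied the scaling, background correction, floor, filter, fit, slide and arrays. The number of arrays limits the precision.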

Additional observations from a re-analysis of the deposited data

Results flagged for a closer look

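No group has more than 3 arrays, so single arrays were not tested as outliers. The results listed here are changes from day 3 to day 5 that differed between treatments in the test of the difference itself. Against the control, 68 miRNAs differed, and among those detected on all 12 arrays the largest log2 differences, as Activin A plus Wnt3a minus control, were 2.17 for miR-199a-3p, 1.99 for miR-429, 1.75 for miR-200a, 1.75 for miR-200c and 1.68 for miR-99b* on the higher side, and -2.83 for miR-9, -2.41 for miR-124, -1.44 for miR-494, -1.23 for miR-20a and -1.07 for miR-805 on the lower. miR-99b* fell by 1.48 in the control and differed by 0.20 ± 0.26 in Activin A plus Wnt3a. miR-494 rose by 1.72 in the control and miR-20a by 1.41, and with 75th percentile scaling their differences were -0.90 and -0.50, under 2-fold. Against Activin A alone, 13 miRNAs differed, and among those detected on all 12 arrays the differences were 1.54 for miR-672 and 1.12 for miR-376b* on the higher side, and -1.21 for miR-770-3p and -1.04 for miR-335-3p on the lower. In each of these tests the scan session changed between the days in the comparison treatment only, and its part was not tested.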

How the results depend on the processing

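The 24 calls between day 3 and day 5 became 21 with 75th percentile scaling, of which 18 rose, as against 18 of 24, 15 when only miRNAs detected on all arrays were tested, 7 with slide as a fixed term in 39 arrays, 8 with slide in the 15 arrays of scan session 2, and 0 with normexp background correction (limma; 69 at an adjusted p under 0.05 and 102 at an unadjusted one), where the offset of 50 compresses low signals. Leaving out 1 array gave 23 to 28 calls, at least 21 of them among the 24. With the replicate block the same 24 were called; the numbers did not pair the arrays (correlations of 0.357, 0.033 and 0.268). With the labels exchanged as in the deposited table, the arrays compared are those described above as Activin A alone, day 3 and day 5. In a fit of these 6 arrays there were 27 calls, 13 shared with the 24, where the fit of 18 arrays gave 32 calls and 15 shared. These miRNAs changed sign: miR-10a -0.77, miR-429 -0.03, let-7e -0.14, miR-18a -0.13, miR-222 0.81, miR-148a -0.07 and miR-770-3p 0.54. Against the control, the 68 calls became 7 with normexp, 42 with a floor of 8, 32 with detection on all arrays and 29 with slide as a fixed term, 62 to 75 with 1 array left out and 67 with the replicate block, and miR-805 turned to 0.06 with normexp. Against Activin A, the 13 calls became 25 with the 75th percentile of miRNAs detected on all arrays, 0 with normexp (13 at an adjusted p under 0.05 and 36 at an unadjusted one, by limma), 6 with a floor of 8, 8 without a filter, 4 with detection on all arrays, 8 in a fit of 39 arrays, 4 with slide as a fixed term, 8 (without replicate 2 of Activin A plus Wnt3a day 3) to 14 with 1 array left out and 10 with the replicate block. Of 3333 values of named miRNAs under alternatives, 8 changed direction. The causes were not tested. Scan session as a fixed term was not run, since it cannot be estimated beside these groups. Undetected miRNAs have only a bound, and the lowest detected log2 level on day 3 varied from 1.00 to 2.54 between arrays.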
